A study of Mus musculus with 7 samples.

Results

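Endothelial cells of the pancreas were examined in mice that express the reprogramming factors Oct4, Sox2, Klf4 and c-Myc (OSKM). The members were the cells of the i4F libraries that the authors' annotation places in a cluster with an endothelial name. They numbered 1422 of 25643 i4F cells, with 311 from i4F 1, 447 from i4F 2 and 664 from i4F 3, and the series held 58473 cells in 7 mice. Each mouse gave 1 library of a droplet assay that counts mRNA molecules by unique molecular identifiers (UMIs). The 3 i4F mice carried the i4F-B genotype, in which the transactivator rtTA sits in the Rosa26 locus and a doxycycline-inducible OSKM cassette is inserted in the Pparg gene, each in 1 copy. The cassette is described as ubiquitous, so that endothelial cells and all their neighbours could express it. The 2 WT mice were wild type and, like the i4F mice, drank doxycycline at 1 mg/ml for 7 days. The 2 caerulein mice were wild type, received a secretagogue that causes mild acute pancreatitis (7 hourly injections of 100 µg/kg on 2 consecutive days) and had no doxycycline according to their labels. All mice were C57BL/6 and 2 months old. Endothelial cells of the WT mice (1122 and 1212 cells, clusters Endothelial_1 and Endothelial_2) and of the caerulein mice (560 and 276 cells) served as references.

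Endothelial cells line blood and lymphatic vessels. In the pancreas, fenestrated capillaries surround acini and islets and let hormones, enzymes and fluid pass, venules admit leukocytes through selectins and adhesion receptors, and arteries carry a Notch programme. Endothelial cells respond to VEGF through Kdr with sprouting led by tip cells, to blood flow with Klf2 and Klf4, and to interferon with antigen presentation on MHC class I, which is also the ligand that inhibits NK cells.

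The cells carried the markers of their label. Summed over Pecam1 (an adhesion receptor of endothelial junctions), Cdh5 (VE-cadherin), Kdr (VEGF receptor 2) and Plvap (the protein of fenestral diaphragms), the i4F endothelial cells had 3619, 4064 and 4353 CPM (UMI counts scaled to equal library totals), against 5478 and 6583 CPM in the WT and 3785 and 5374 CPM in the caerulein endothelial cells. None of the 4 markers was at 0 in any mouse. After every cell was thinned to 500 UMIs, with 123, 147 and 251 shallower cells left out, Pecam1 was seen in 35.6, 41.7 and 41.7% of the i4F endothelial cells (54.3, 53.7 and 52.9% without thinning). In the macrophage clusters of the same mice, which should lack it, the thinned share was 0.0967, 0.204 and 0.440%. The medians were 774, 821 and 797 UMIs per i4F endothelial cell and 2735, 2085 and 2930.5 UMIs per macrophage. The UMIs summed over endothelial cells were 440769, 574583 and 768676 in the i4F, 2095947 and 2461759 in the WT, and 1192086 and 315054 in the caerulein mice, so that low-abundance genes were measured less precisely in the i4F and caerulein 2 mice. Of the 1422 cell barcodes, 1 occurred in more than 1 i4F library.

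The library labelled i4F 3 stood apart from i4F 1 and i4F 2. When the i4F endothelial cells were clustered alone, 5 clusters were found. Cluster 0 was vein-like (408 cells) and took 58.5 and 42.1% of the endothelial cells of i4F 1 and i4F 2 but 5.72% of those of i4F 3. Its cells were shallow (a median of 349.5 UMIs against 1434 in cluster 1), and few carried UMIs of the vein genes Ackr1 (14.5%) and Selp (15.7%). Cluster 1 (363 cells, 37.6, 53.02 and 1.36%) was left unnamed. Its closest marker list was that of tip cells, with 4 of these genes up, of which 1 (Esm1) stood among its leading genes. The myeloid genes Il1b, Cxcl2 and C1qb stood there too. At a finer resolution, 44 cells led by Il1b and other myeloid genes (8, 15 and 21 per mouse) formed a cluster of their own, and the vein-like cluster held 376 cells. A further 351 cells were led by Scgb3a1, Lamb1, Sema6d, Dll4 and Esm1. No myeloid gene stood among their leading genes, and tip cells were again the closest list, with 4 genes up. Cluster 2 (326 cells, 0, 1.34 and 48.2%) also stayed unnamed and was led by Irf1 and Iigp1. Cluster 3 (281 cells, 0.643, 1.79 and 40.8%, 315 UMIs per cell) was led by acinar enzyme genes such as Pla2g1b. Cluster 4 was lymphatic-like, with 10, 8 and 26 cells (3.22, 1.79 and 3.92%). Clusters 2 and 3 were thus nearly all of i4F 3, and clusters 0 and 1 mostly of i4F 1 and i4F 2, with 38 and 9 cells of i4F 3. Whether any of these clusters are kinds of cells or properties of the libraries cannot be told apart.

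**Figure D1:**
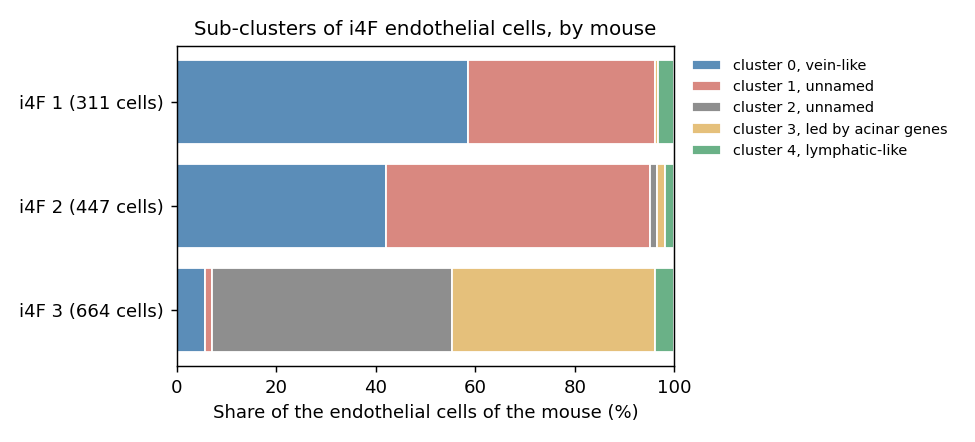
Share of the endothelial cells of each i4F mouse (horizontal axis, percent) in 5 sub-clusters, shown as stacked bars. The vein-like cluster and cluster 1 make up most cells of i4F 1 and i4F 2, whereas cluster 2 and the cluster led by acinar genes hold 48.2 and 40.8% of i4F 3.

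RNA of other cells in the endothelial cells also differed between the mice. The summed level of 9 macrophage markers was 1064, 945 and 224 CPM in the i4F endothelial cells, 71.6 and 73.1 CPM in the WT and 7603 and 5259 CPM in the caerulein ones. The 3 acinar markers listed in the tables summed to 83.9, 254 and 1945 CPM in i4F 1, i4F 2 and i4F 3 and to 735 and 548 CPM in the WT mice. Endocrine markers were at 9.1, 15.7 and 346 CPM against 207 and 166 CPM, and neutrophil markers at 72.6, 259 and 18.2 CPM against 0.48 and 1.6 CPM. The part of these transcripts in the results was not tested beyond the fits without marked cells, and results are given with and without i4F 3 where they depend on it. Adjusted p-values without i4F 3 describe i4F 1 and i4F 2 against WT. They are no evidence on i4F mice as a group, since the mouse that stood apart was left out.

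Endothelial cells formed a smaller share of the i4F than of the WT pancreas libraries. They were 25.9 and 19.2% of all cells in the WT mice and 3.17, 5.44 and 8.72% in i4F 1, i4F 2 and i4F 3, so that the groups did not overlap. The means were 22.5 ± 4.79% (SD, n = 2) and 5.78 ± 2.79% (SD, n = 3), a difference of -16.8 percentage points (log2 ratio -1.96). An exact two-sided permutation test gave p = 0.2, the smallest value that the 10 arrangements of 2 and 3 mice allow. Immune clusters also differed in size between the groups, and among non-immune cells the shares were 27.3 and 21.7% (WT) and 5.51, 10.5 and 13.9% (i4F), again without overlap. Here the means were 24.5 ± 3.97% and 9.97 ± 4.21%, with a log2 ratio of -1.30 (exact permutation p = 0.2). The caerulein mice had 3.70 and 3.92% endothelial cells among all cells, within the range of the i4F mice. A share of dissociated cells depends on how well each cell type was released and on the number of the others, and these cannot be told apart from a loss of vessels.

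**Figure D2:**
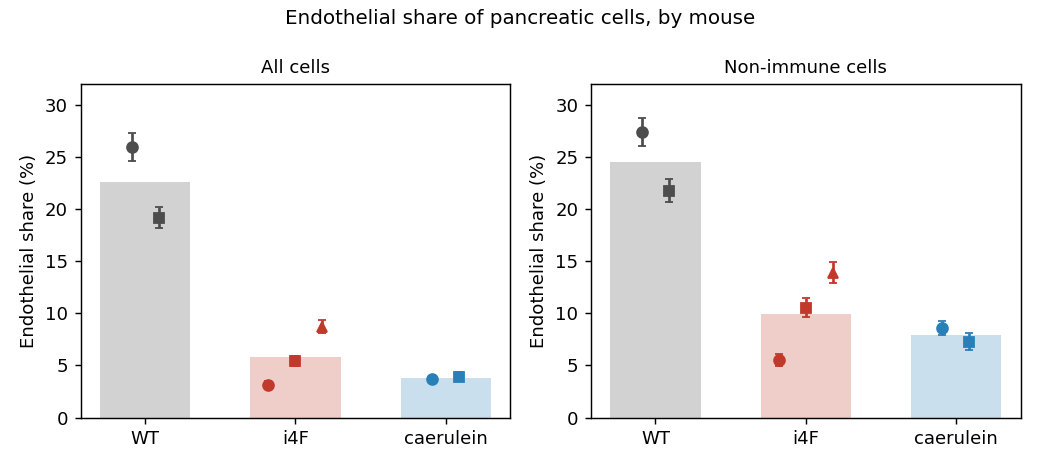
Endothelial cells as a percentage of all cells (left) and of non-immune cells (right), with 1 point per mouse, exact 95% binomial intervals as error bars and the group mean as a bar that starts at 0. All 3 i4F mice lie below both WT mice in both panels, and the caerulein mice lie at 3.70 and 3.92% of all cells.

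The transgene was read in the endothelial cells. The rtTA transcript, which is the doxycycline-dependent activator of the cassette, had 0 UMIs in both WT mice and was at 41.2, 65.1 and 89.9 CPM in i4F 1, i4F 2 and i4F 3. In the caerulein mice, which carry no transgene, it was at 0.934 and 0 CPM. In all other cells it was at 42.5, 48.1 and 44.8 CPM in the i4F and 1.09 and 0.165 CPM in the WT mice. With 118 UMIs in the i4F endothelial cells, its level was at least 100.5-fold higher than the 3 UMIs that a count of 0 allows over the WT cells. Pou5f1, which encodes Oct4, and Sox2 had 0 UMIs in the endothelial cells of all 3 i4F mice, and so did the pluripotency gene Nanog and the RNA-binding factor gene Lin28a. Klf4 was at 542 and 384 CPM in the WT and 229, 255 and 471 CPM in the i4F mice, and Myc at 32.3 and 21.4 CPM and 54.9, 66.9 and 48.5 CPM. Neither passed the test with all mice (adjusted p = 0.43 and 0.14). Without i4F 3, Klf4 was called lower and Myc higher, and the median log2 difference of Klf4, Myc and rtTA was 1.19. The assay reads transcripts at their 3′ end, so that RNA of the cassette need not count towards the endogenous genes, and expression of the cassette was not measured here.

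Of 8153 genes tested in endothelial cells with edgeR's quasi-likelihood test (all 7 mice in 1 fit, Benjamini-Hochberg adjusted p under 0.05), 57 were higher (0.699%) and 9 lower (0.11%) in i4F than in WT mice (82 and 28 without TMM scaling). The median log2 difference of all tested genes was 0.02. In all 66 genes the mice of the 2 groups did not overlap. Over all tested genes, 18.0% had all i4F mice above both WT mice and 17.7% had all below. The 66 genes were picked by a test on the same mice, so that their lack of overlap is no separate evidence. Single libraries decided the numbers of calls. Without i4F 3, 636 genes were higher (7.43%) and 587 lower (6.86%) of 8560 tested, among them all 66 genes called with it. Without WT 1, i4F 1 or i4F 2, 9 genes passed in each fit, of which 7, 9 and 9 were among the 66, and without WT 2, whose library name series the i4F libraries do not share, 55 genes passed, 23 of them among the 66. With this series as a term in the fit 46 genes passed, 20 of them among the 66, and Lrg1, Scgb3a1, Csf2rb, Clec14a and Jam3 no longer passed (adjusted p = 0.070, 0.079, 0.054, 0.072 and 0.066), at log2 differences of 3.62, 5.27, 2.99, -1.87 and -2.18 against 4.08, 5.23, 3.20, -1.98 and -2.05 without the term. Of the genes named here, rtTA, Lcn2, Reln, Lyve1 and Fgl2 passed in all 5 of these fits and Csf3, Maf and Rgs5 in 4, whereas Lrg1, Scgb3a1, Csf2rb, Ankrd37, Clec14a, Jam3, Clca3a1, Hrct1, Samd12 and Filip1 passed in only 1, the fit without i4F 3. Among the 636 genes, i4F 3 itself lay above both WT mice for 418 (65.7%, against 24.6% of all tested genes), but the median log2 difference from WT was 1.59 in i4F 1 and i4F 2 and 0.40 in i4F 3. Among the 587 lower genes i4F 3 lay below both WT mice for 468 (79.7%, against 47.6% of all), with medians of -1.60 and -0.49. These positions and medians used plain CPM without TMM scaling (TMM factors of 0.9344 in i4F 3, 1.092 in WT 1 and 0.9933 in WT 2). Plain CPM sets i4F 3 lower against the WT mice, so that more genes fall below them and fewer above. These genes were picked against the same WT mice, so that the shares over all tested genes are not the level to be met without a change. Of the 57 higher genes, 20 were at least as abundant in endothelial cells as in all other cells of the same mouse in every i4F mouse. So were 7 of the 9 lower genes, compared in the WT mice. Csf2rb is among the 20 only through the scaling of the endothelial levels. The remaining higher genes were more abundant in other cells of at least 1 i4F mouse and are described further on.

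Lymphatic genes led the higher genes that endothelial cells held. Lyve1, the hyaluronan receptor of lymphatic vessels, was at 1.35 and 3.35 CPM in the WT and 306, 234 and 361 CPM in the i4F endothelial cells (log2 difference 6.92 ± 0.44 SE, adjusted p = 0.00057). Ccl21a, the chemokine by which lymphatic vessels guide dendritic cells, was at 8.08 and 22.6 CPM and 969, 312 and 1769.7 CPM (6.04 ± 0.86, adjusted p = 0.025). Reln, a secreted matrix glycoprotein, had 0 UMIs in the WT mice and 68.6, 49.3 and 54.2 CPM in the i4F mice, at least 81.8-fold above the 3 UMIs that a count of 0 allows. All i4F mice stood above both WT mice for each of these genes, i4F 3 included. The same held for Nts, which encodes the peptide neurotensin (6.50 ± 0.92), for the secreted protein gene Fgl2 (4.61 ± 0.52), for the transcription factor gene Maf (2.55 ± 0.27) and for Clca3a1 (3.37 ± 0.56), with adjusted p of 0.025, 0.014, 0.008 and 0.036. Of the 8 lymphatic genes listed, 4 were called higher (Lyve1, Ccl21a, Reln and Pdpn) and the median was 3.56.

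These differences depended on which cells carried an endothelial name, and the authors clustered and named each condition on its own. In the i4F mice most of these transcripts came from the 44 lymphatic-like cells, where Lyve1 stood at 6196 CPM and Reln at 1156 CPM over the 3 mice, against at most 22.7 and 7.6 CPM in any of the other 4 clusters. In the WT mice, 38 and 50 cells with a cluster name of their own, Lymph_nodes, lie outside the endothelial clusters. When these cells were added to the WT endothelial cells, an alternative chosen after the data were seen, the log2 difference of Lyve1 became -0.06 (adjusted p = 0.93) and that of Ccl21a -1.18 (adjusted p = 0.31), both with the opposite sign. Reln (0.34, adjusted p = 0.52), Nts (0.13), Fgl2 (0.27), Maf (0.57) and Clca3a1 (1.67, adjusted p = 0.13) no longer passed the test. A rise of lymphatic genes within endothelium was therefore not shown by these data.

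Other genes that rose included a venular glycoprotein and a growth factor for granulocytes. Lrg1 (GRCm38.p6, chr17:56119678-56121946), a secreted glycoprotein of activated venules, was at 139 and 63.2 CPM in the WT and 1994, 2473 and 649 CPM in the i4F mice. Its level in i4F 3 was the lowest of the 3 but above both WT mice, and the log2 difference was 4.08 ± 0.63 (adjusted p = 0.034; 3.81 with the WT Lymph_nodes cells added). Over the 3 i4F mice it stood at 3114 CPM in the vein-like, 2593 CPM in the lymphatic-like, 967.5 CPM in the acinar-led cluster, 1757 CPM in cluster 1 and 105.5 CPM in cluster 2. Lrg1 is among the vein genes by which the vein-like cluster was named, so that its level there is no separate evidence. Csf3 (chr11:98700183-98703631), which encodes the granulocyte colony-stimulating factor G-CSF, was at 5.39 and 5.44 CPM and 57.2, 186.6 and 153 CPM (4.59 ± 0.55, adjusted p = 0.016; 4.66 with the Lymph_nodes cells). Few cells carried it, with UMIs in 6.37% of the vein-like cells (431 CPM, 162 UMIs), 3.58% of the cells of cluster 1 (35 UMIs) and 2.27% of the 44 lymphatic-like cells (27 UMIs, in 1 cell of i4F 3). Of the 107 UMIs of i4F 3, 63 lay in 3 vein-like cells and 27 in that 1 lymphatic-like cell, so that 4 cells held most of them. Csf2rb, the shared receptor subunit for GM-CSF, IL-3 and IL-5, was at 6.28 and 4.61 CPM and 50.3, 72.2 and 31.4 CPM (3.20 ± 0.41, adjusted p = 0.017). For Csf3 and Csf2rb the groups did not overlap. In the other cells of i4F 1, i4F 2 and i4F 3, Csf2rb was at 30.3, 46.5 and 28.8 CPM, given without TMM scaling. On that same scale the endothelial cells of i4F 3 (22 of 768676 UMIs) lay just below the other cells.

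Scgb3a1 (chr11:49663595-49665118), a small secreted secretoglobin, was at 6.73 and 7.12 CPM in the WT and 210.3, 523 and 62.8 CPM in the i4F mice (5.23 ± 0.85, adjusted p = 0.036). It was highest in i4F 2 and in cluster 1, where it reached 259 CPM in i4F 1 and 714 CPM in i4F 2 (534 CPM over the 3 mice). With the WT Lymph_nodes cells added, Scgb3a1 and Ankrd37 no longer passed, at 5.30 and 2.85 (adjusted p = 0.053 for each). Inhbb, which encodes a subunit of activin B, was at 121 and 121 CPM and 423, 611 and 445 CPM (2.02 ± 0.29, adjusted p = 0.025). The groups did not overlap. A pair of genes that are induced by low oxygen rose, Ankrd37 from 9.87 and 12.1 to 117, 86.3 and 35.7 CPM (2.81 ± 0.47, adjusted p = 0.036) and the lipid droplet gene Hilpda from 82.6 and 77.9 to 658, 415 and 218 CPM (2.42 ± 0.43, adjusted p = 0.047), both with i4F 3 as the lowest i4F mouse. Fkbp5 and Zbtb16, which are known glucocorticoid targets, rose as well. Like Inhbb and Hilpda, they were picked outside the rule for named genes, and their single results in the other fits are not given. Fkbp5 was at 20.6 and 20.5 CPM in the WT and 96, 143 and 84.2 CPM in the i4F mice (2.38 ± 0.32, adjusted p = 0.02) and Zbtb16 at 11.2 and 12.6 CPM and 29.7, 54.6 and 89.9 CPM (2.31 ± 0.42, adjusted p = 0.049).

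The lower calls included 1 of 28 pan-endothelial and 1 of 14 junction genes. Clec14a (chr12:58264720-58269258), an endothelial surface lectin that takes part in sprouting, was at 519 and 600.0 CPM in the WT and 91.4, 125 and 206 CPM in the i4F mice (-1.98 ± 0.33, adjusted p = 0.036). Jam3 (chr9:27097384-27155421), a junctional adhesion molecule, was at 363 and 302 CPM and 41.2, 81 and 114 CPM (-2.05 ± 0.37, adjusted p = 0.047). For both, every i4F mouse lay below both WT mice, with i4F 3 the highest of the i4F mice. With the WT Lymph_nodes cells added, Clec14a and Jam3 no longer passed, at -1.91 and -1.99 (adjusted p = 0.053 and 0.061). Brip1, a DNA helicase of the Fanconi pathway, was at 49.8 and 37.7 CPM and 4.57, 7.04 and 5.71 CPM (-2.88 ± 0.36, adjusted p = 0.017). Its i4F levels rested on 2, 4 and 4 UMIs. Without i4F 1 or without i4F 2, Brip1 no longer passed (adjusted p = 0.065 and 0.066). Hrct1 (-2.23), Samd12 (-2.12) and the actin-associated gene Filip1 (-1.76) fell too, with adjusted p of 0.036, 0.043 and 0.043.

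**Figure D3:**
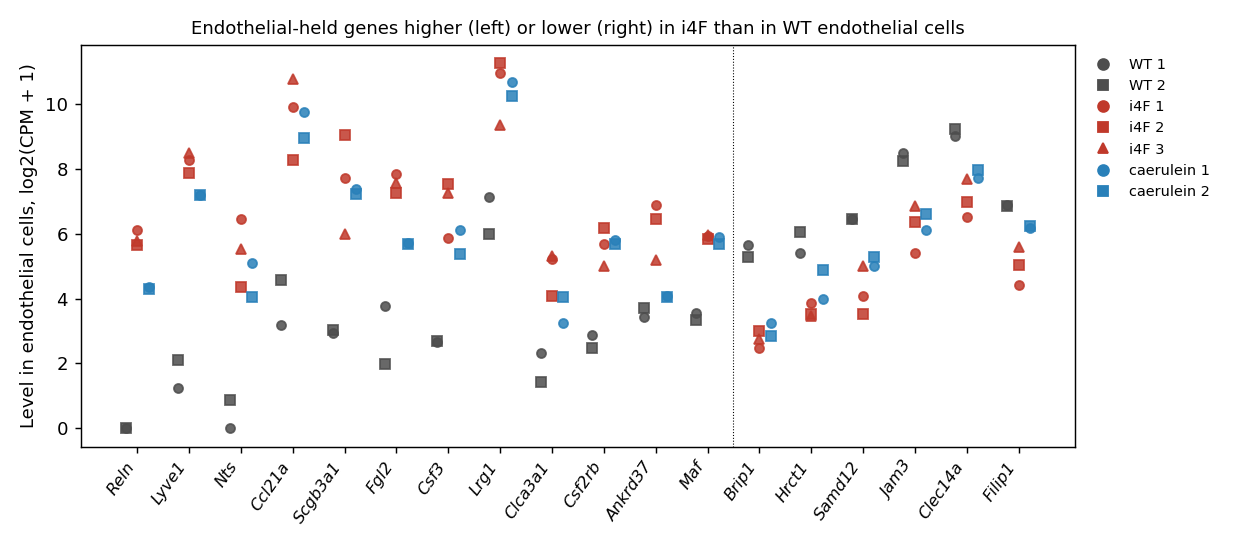
Level of 12 genes higher (left of the dotted line) and 6 genes lower in i4F than in WT endothelial cells, as log2(CPM + 1), with 1 point per mouse (WT grey, i4F red, caerulein blue). The i4F points lie on one side of both WT points for every gene shown, and i4F 3 (triangle) is the i4F mouse nearest to WT for Lrg1, Scgb3a1 and Clec14a.

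Of 28 pan-endothelial identity genes tested, 1 fell (Clec14a) and none was called higher with all mice, and the median log2 difference was -0.22. All 3 i4F mice lay below both WT mice for 12 of the 28 genes (17.7% of all tested genes) and above them for 4 (18.0% of all). Kdr was at 1459.8 and 1823 CPM in the WT and 450.4, 662 and 878 CPM in the i4F mice, all below WT, and missed the threshold (-1.30 ± 0.32, adjusted p = 0.099). Pecam1 was at 1515 and 1482 CPM and 896, 1037 and 1197 CPM (adjusted p = 0.26), and Plvap at 1274 and 2701 CPM and 1715, 1839.6 and 2047 CPM, within the range of the WT mice. Without i4F 3, 5 of the 28 fell, namely Kdr (-1.56, adjusted p = 0.014), the angiopoietin receptor gene Tek (-0.79), the sialomucin gene Emcn (-1.02), the phosphatase gene Ptprb (-1.27) and Clec14a (-2.36). In the same fit Ecscr (1.09), Rasip1 (1.25) and Cd93 (0.87) rose. The figure of list medians shows how far each group of genes depended on i4F 3.

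**Figure D4:**
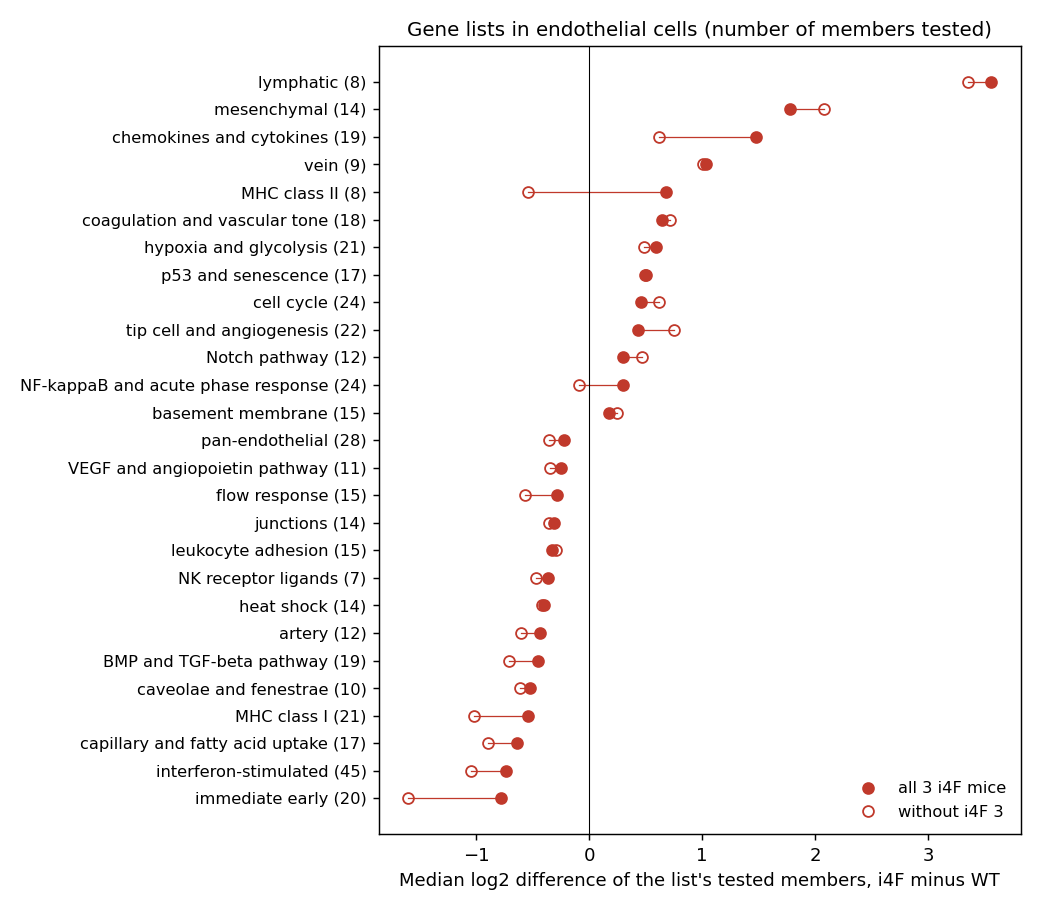
Median log2 difference between i4F and WT endothelial cells over the tested members of 27 of the 28 gene lists (horizontal axis; the list of reprogramming factors and the transgene, with 3 genes tested, is not drawn), with all i4F mice (filled) and without i4F 3 (open). Interferon-stimulated, MHC class I and immediate early genes move to the left without i4F 3, and the median of the MHC class II and NF-kappaB lists changes sign.

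Against the WT mean, the median level of the capillary genes was -0.72 and -0.998 (log2) in i4F 1 and i4F 2 and -0.0015 in i4F 3, and that of the caveolar genes -0.43, -0.82 and -0.36. None of 17 capillary genes tested and none of 10 genes of caveolae and fenestrae passed the test with all mice (medians -0.64 and -0.52). Without i4F 3, 6 and 4 of them fell and 1 and 0 rose, and the medians were -0.90 and -0.61. Over all genes tested in that fit, 6.86% fell, 7.43% rose and the median was 0.01, which is the background of each list count without i4F 3. Cavin2, a coat protein of caveolae, was at 2050.0 and 2222 CPM in the WT, 302 and 249.97 CPM in i4F 1 and i4F 2 and 1162 CPM in i4F 3 (-2.96 without i4F 3, adjusted p = 0.001). Cav1, the main scaffold protein of caveolae, was at 589 and 582 CPM, 149 and 151 CPM and 357 CPM (-1.97, adjusted p = 0.0035). Both genes had i4F 3 below the WT mice but above the other i4F mice. Car4, a carbonic anhydrase of the capillary surface, was at 811 and 945 CPM, 192 and 192 CPM and 746 CPM (-2.19, adjusted p = 0.0016). The fatty acid carrier genes Cd36 (-1.18) and Fabp5 (-1.23) and the lipase gene Lipe (-1.67) fell in the same fit, whereas Fabp4, one of the most abundant capillary transcripts, was at 13647 and 17243 CPM and 9353, 9235 and 11182 CPM and did not pass (adjusted p = 0.086 without i4F 3). Pparg, the gene that holds the cassette, had 18.4 and 27.2 CPM in the WT and 11.4, 0 and 7.14 CPM in the i4F mice (adjusted p = 0.18).

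Artery genes gave no call among 12 tested with all mice (median -0.43), and without i4F 3 Cxcl12, the ligand of Cxcr4, and the phosphatase gene Alpl fell (-2.29 and -3.59). Among 9 vein genes Lrg1 was the single call (median 1.04), and without WT 2 the median was 0.20 and no vein gene passed. The venular chemokine receptor gene Ackr1 differed too much within the WT mice (129.7 and 9.21 CPM) for a comparison with the i4F mice (75.4, 243 and 123 CPM), and so did the selectin gene Selp (225 and 68.7 against 171, 414 and 315 CPM). The 12 Notch pathway genes tested had no call with all mice (median 0.30), and without i4F 3 Mfng, which glycosylates Notch receptors, rose (0.98). Dll4, the Notch ligand of arteries and tip cells, was at 123 and 123 CPM in the WT and 187.5, 282 and 106 CPM in the i4F mice, highest in i4F 2 and lowest in i4F 3 (adjusted p = 0.45).

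Several tip cell genes were higher in i4F 1 and i4F 2 than in the WT mice. With all mice none of 22 tip and angiogenesis genes passed (median 0.43), and without i4F 3, 7 rose and none fell (median 0.75). Kcne3, a potassium channel subunit of tip cells, was at 13.5 and 7.12 CPM in the WT, 54.9 and 79.2 CPM in i4F 1 and i4F 2 and 28.5 CPM in i4F 3 (2.71 without i4F 3, adjusted p = 0.0094). Insr, the insulin receptor gene, was at 48 and 20.1 CPM, 181 and 241 CPM and 35.7 CPM (2.63, adjusted p = 0.006), so that i4F 3 was within the range of WT. The matrix protease gene Mmp14 (3.73), the urokinase receptor gene Plaur (1.47), Trp53i11 (1.48), the basement membrane gene Nid2 (1.13) and Pgf (3.11) also rose in that fit. The classical tip markers Esm1, at 363 and 294 CPM and 112, 364 and 118 CPM, and Apln, at 12.6 and 25.5 CPM and 27.4, 22.9 and 4.28 CPM, passed in neither fit.

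Of 11 genes of the VEGF and angiopoietin pathway tested, none passed with all mice (median -0.25). Without i4F 3, the placental growth factor gene Pgf rose, from 7.63 and 16.7 CPM to 96 and 116 CPM in i4F 1 and i4F 2, with 45.7 CPM in i4F 3. The lymphangiogenic ligand gene Vegfc fell (92 and 43.5 CPM to 16 and 17.6 CPM, -1.997), as did Kdr, its co-receptor gene Nrp1 (-1.46), Tek and Ptprb. Flt1, the decoy receptor of VEGF, was at 2609.6 and 2607 CPM in the WT and 1689.5, 2628 and 3154 CPM in the i4F mice and did not pass (adjusted p = 0.54). Vegfa itself was under the filter on low counts. Among 15 basement membrane genes none passed with all mice (median 0.18), and without i4F 3 the collagen XVIII gene Col18a1 (3.11), the laminin gene Lamb1 (1.57), Nid1 (1.013) and Nid2 rose while Lamb2 (-1.25) and Sparcl1 (-0.94) fell.

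Without i4F 3, 8 of 19 BMP and 6 of 15 flow genes fell, while 1 and 2 rose. The 19 genes of the BMP and TGF-beta pathway tested had a median of -0.45 and 1 higher call with all mice, and without i4F 3 the median was -0.71 (6.86% of all tested genes fell and 7.43% rose in that fit). Acvrl1, the endothelial type I receptor of BMP9, was at 499 and 494 CPM in the WT, 208 and 174 CPM in i4F 1 and i4F 2 and 319.7 CPM in i4F 3 (-1.38, adjusted p = 0.0081). Its target gene Id3 was at 1100.4 and 1366 CPM, 183 and 391 CPM and 848 CPM (-2.10), and Id1 (-1.53), Id2 (-1.02), Smad6 (-1.63) and Smad7 (-1.17) fell with it, as did Bmp6 and the latent TGF-beta binding gene Ltbp4 (-2.12). Among 15 genes of the response to flow (median -0.28), Klf2 was at 255 and 228 CPM, 54.9 and 84.5 CPM and 235 CPM (-1.78, adjusted p = 0.0055). Thrombomodulin (Thbd, -1.25), endothelin 1 (Edn1, -1.63), Klf4 (-0.93), Nfe2l2 (-0.84) and Cyr61 (-2.19) fell in that fit, and Slco2a1 (2.45) and Hmox1 (1.46) rose. With all mice, Cyr61, a matricellular target of Yap, was the single call of the flow list, at 688 and 597 CPM and 130.3, 151 and 233 CPM (-1.90 ± 0.29, adjusted p = 0.033).

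Immediate early genes, which are also induced while tissue is dissociated, showed the lowest list median (-0.78 over 20 genes, and -1.60 without i4F 3, when 12 fell and 1 rose). Fos was at 3999 and 3694 CPM in the WT, 759 and 687 CPM in i4F 1 and i4F 2 and 2635 CPM in i4F 3 (-2.41, adjusted p = 0.0011). Egr1 was at 2603 and 1987 CPM, 389 and 438 CPM and 1847 CPM (-2.47, adjusted p = 0.0013). Over the list the median level against the WT mean was -1.65 and -1.47 (log2) in i4F 1 and i4F 2, 0.03 in i4F 3 and -0.79 and -0.76 in the caerulein mice. The genes of flow and of the immediate early response overlap in Klf2, Klf4 and Cyr61, so that these lists are not independent. Of 14 heat shock genes none passed with all mice (median -0.40).

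Of 15 adhesion genes 1 fell (Jam3), none was called higher, and the median was -0.33. Icam1, the ligand of LFA-1 on leukocytes and NK cells, was at 187.1 and 389 CPM in the WT and 171, 327 and 637 CPM in the i4F mice, with i4F 3 the highest and the groups overlapping (adjusted p = 0.72). Vcam1 was at 123 and 44.4 CPM and 54.9, 130.3 and 257 CPM, and E-selectin (Sele) at 29.6 and 25.1 CPM and 36.6, 79.2 and 84.2 CPM, with neither called. Of 19 chemokine and cytokine genes Csf3 and Ccl21a were called higher (median 1.48, but 0.61 without i4F 3, 3.18 without WT 2 and 0.51 without cells of other or lymphatic markers). Ccl21a had the opposite sign with the WT Lymph_nodes cells added (-1.18, adjusted p = 0.31). Without i4F 3, 7 of 17 rose, among them Cxcl2 (4.87), Ccl2 (4.09) and Il1b (5.77), all of which were more abundant in other cells of the i4F mice. In the same fit 6 fell, namely Tnfsf10, Cxcl12, Cxcl10, Cx3cl1, Csf1 and Kitl. Tnfsf10, which encodes the death ligand TRAIL, was at 305 and 286 CPM in the WT, 22.9 and 29.9 CPM in i4F 1 and i4F 2 and 117 CPM in i4F 3 (-3.46, adjusted p = 0.001). In the other cells of the i4F mice it was at most at 1.84 CPM.

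Interferon-stimulated genes carry short elements in their promoters to which the interferon-activated factors of the IRF and ISGF3 families bind. A motif of 2 GAAA blocks with 2 bases of any kind between them was searched on both strands in the 250 bases before the start of each gene (RefSeq, GRCm38.p6). It was found in 20 of the 33 interferon-stimulated genes with a promoter in the table (60.6%), in 3 of 20 MHC class I genes and in 936 of all 27025 promoters (3.46%). Of the interferon-stimulated genes that fell without i4F 3, 16 of 19 held it (84.2%), and of the others 4 of 14 (28.6%). A match describes the letters of the promoter and is no measured binding site. The genes shown are GTPase genes of the cell-autonomous response to interferon. They were taken in order of adjusted p without i4F 3 from interferon-stimulated genes that fell and held the motif, with a chromosome left out. A match in each run was therefore fixed in advance. Each run of 100 bases is written 5′ to 3′ on the strand of the gene with the motif, or its reverse complement, in capitals. The runs of Igtp, Gbp7 and Irgm1 end at the base before the start of the gene, that of Gbp5 lies 210 to 111 bases before it, and Irgm1 holds a pair of overlapping matches.
Igtp (chr11:58199456-58199555, + strand): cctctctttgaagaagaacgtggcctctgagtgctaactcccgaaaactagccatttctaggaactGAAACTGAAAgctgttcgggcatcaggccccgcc
Gbp5 (chr3:142496724-142496823, + strand): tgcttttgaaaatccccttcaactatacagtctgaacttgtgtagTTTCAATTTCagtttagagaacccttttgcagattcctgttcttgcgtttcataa
Gbp7 (chr3:142530236-142530335, + strand): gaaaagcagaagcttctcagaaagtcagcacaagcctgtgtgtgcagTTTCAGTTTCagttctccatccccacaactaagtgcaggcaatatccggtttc
Irgm1 (chr11:48871421-48871520, - strand): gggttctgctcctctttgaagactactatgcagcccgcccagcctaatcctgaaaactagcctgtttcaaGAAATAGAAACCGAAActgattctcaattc

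In the endothelial cells, Igtp was at 179 and 132 CPM in the WT, 34.3 and 29.9 CPM in i4F 1 and i4F 2 and 203 CPM in i4F 3 (-2.28 without i4F 3, adjusted p = 0.0037). Gbp5 was at 73.6 and 67.4 CPM, 9.14 and 14.1 CPM and 74.2 CPM (-2.56, adjusted p = 0.0037), Gbp7 at 305 and 260.0 CPM, 84.6 and 84.5 CPM and 253 CPM (-1.74), and Irgm1 at 200.2 and 127 CPM, 32 and 35.2 CPM and 138 CPM (-2.27). For each of them i4F 1 and i4F 2 lay far below both WT mice and i4F 3 lay near them. Irf1, the transcription factor that drives many of these genes, was at 719.8 and 907 CPM, 54.9 and 81 CPM and 755 CPM (-3.57, adjusted p = 0.001), and the GTPase gene Iigp1 at 1615 and 1510.0 CPM, 96 and 149.6 CPM and 1138 CPM (-3.66, adjusted p = 0.00072). None of the 45 interferon-stimulated genes passed with all mice (median -0.74). Without i4F 3, 24 fell and 2 rose (Ifi27l2a and Zbp1), with a median of -1.04, beside 6.86% lower, 7.43% higher and a median of 0.01 over all tested genes. The median level of the list against the WT mean was -1.15 and -0.96 (log2) in i4F 1 and i4F 2, -0.16 in i4F 3 and -1.91 and -1.61 in the caerulein mice.

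Among MHC class I genes, H2-K1, a classical class I heavy chain, was at 3746 and 2728 CPM in the WT, 1957 and 1521 CPM in i4F 1 and i4F 2 and 3755 CPM in i4F 3. H2-D1, the other classical chain, was at 4459.8 and 4132 CPM, 2291 and 1954 CPM and 4322 CPM. None of 21 class I genes passed with all mice (median -0.54), and without i4F 3, 11 fell and none rose (median -1.02), including H2-K1 (-0.90, adjusted p = 0.049), H2-D1 (-1.02, adjusted p = 0.021), the peptide transporter genes Tap1 (-1.22) and Tap2 (-1.58) and the immunoproteasome genes Psmb8 (-0.79), Psmb9 (-1.75) and Psmb10 (-1.53). B2m, the light chain, was at 2654 and 1783 CPM, 1550.0 and 1158 CPM and 1864 CPM and passed in neither fit (adjusted p = 0.11 without i4F 3). Against the WT mean, the median level of the list was -0.84 and -1.09 (log2) in i4F 1 and i4F 2, -0.09 in i4F 3, and -0.91 and -0.72 in the caerulein mice. Among 8 class II genes (median 0.68, and -0.54 without i4F 3) none passed with all mice and 2 rose without i4F 3, Ctss and Ifi30, which are macrophage proteases and reductases and were more abundant in other cells.

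**Figure D5:**
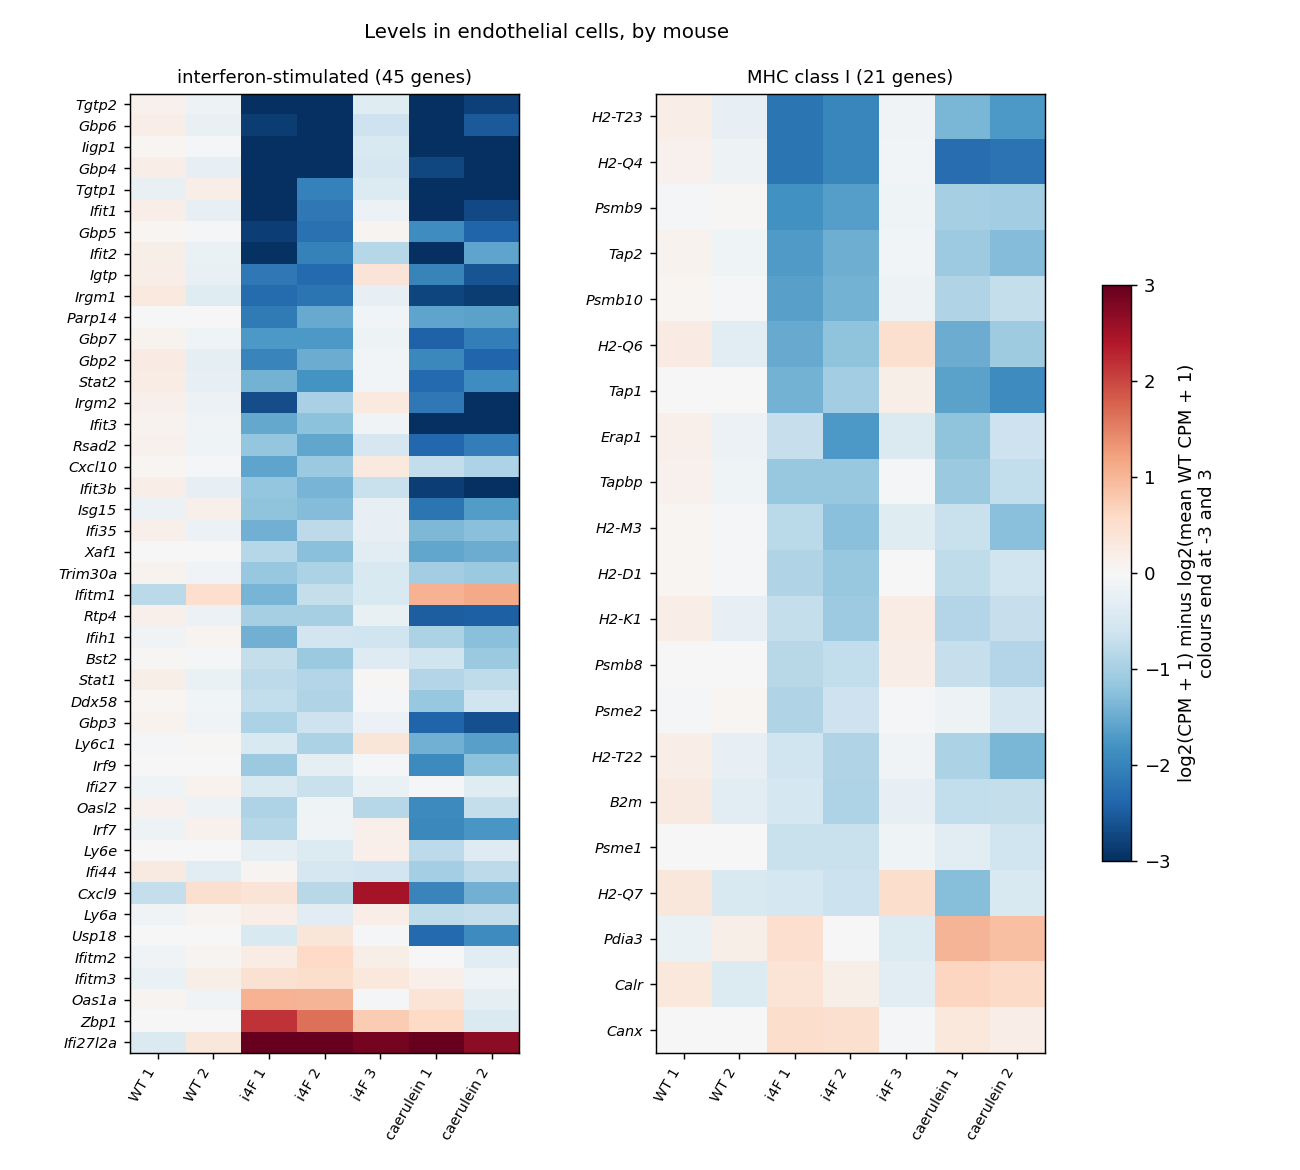
Level of 45 interferon-stimulated (left) and 21 MHC class I genes (right) in endothelial cells, 1 column per mouse, as log2(CPM + 1) minus the log2 of the WT mean plus 1 (blue lower, red higher, colours end at -3 and 3). Columns i4F 1, i4F 2 and both caerulein mice are mostly blue, and the column of i4F 3 is close to those of the WT mice apart from genes such as Cxcl9 and Ifi27l2a.

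Ligands of NK receptors were looked at because the study asked how NK cells meet reprogramming cells. Of 15 genes listed for this group, 12 were in the tables and 7 passed the filter, and none was called with all mice (median -0.37). H2-T23, which encodes Qa-1, the ligand of the inhibitory receptor NKG2A, was at 526 and 386 CPM in the WT, 98.3 and 116 CPM in i4F 1 and i4F 2 and 422 CPM in i4F 3 (-2.08 without i4F 3, adjusted p = 0.003). Clec2d, the ligand of the inhibitory receptor Nkrp1d, was at 298 and 296 CPM, 117 and 178 CPM and 389.6 CPM (-1.003, adjusted p = 0.031). Pvr, the ligand of the activating receptor DNAM-1, was at 149 and 148 CPM, 93.7 and 70.4 CPM and 169.8 CPM (-0.87, adjusted p = 0.045). For all 3 genes i4F 3 was within or near the range of the WT mice. The NKG2D ligand gene Raet1e was at 19.3 and 12.6 CPM in the WT and 16, 12.3 and 8.56 CPM in the i4F mice (adjusted p = 0.63). The other NKG2D ligand genes in the tables, Raet1d, Ulbp1, H60b and H60c, were under the filter, so that a difference in them was not detectable at this depth.

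Of 21 hypoxia and glycolysis genes tested, 13 had all 3 i4F mice above both WT mice, against 18.0% of all genes, and 1 passed (Ankrd37). The median was 0.59, and 7 rose without i4F 3. Pkm, which encodes pyruvate kinase, was at 284 and 293 CPM in the WT and 841, 959 and 334 CPM in the i4F mice (1.64 without i4F 3, adjusted p = 0.0031), and Pgk1, phosphoglycerate kinase, at 103 and 94.2 CPM and 318, 268 and 107 CPM (1.56, adjusted p = 0.0052). Both were more abundant in other cells of the i4F mice than in endothelial cells. Cell cycle genes had no call among 24 with all mice (median 0.46). Without i4F 3, 9 rose and 2 fell. Mki67, a marker of cycling cells, was at 0.898 and 1.26 CPM in the WT, 18.3 and 21.1 CPM in i4F 1 and i4F 2 and 0 in i4F 3 (4.07, adjusted p = 0.0031), and Top2a was at 1.35 and 2.09 CPM, 22.9 and 38.7 CPM and 1.43 CPM (4.10, adjusted p = 0.0031). These levels rested on 8 and 12 UMIs of Mki67 and 10 and 22 UMIs of Top2a in i4F 1 and i4F 2, and 8 cycling markers summed to 408 and 362 CPM in their endothelial cells against 1036 and 837 CPM in their other cells. Cyclin D1 (Ccnd1) fell in that fit (249 and 337 CPM and 128, 109 and 65.7 CPM, -1.31), and Cdkn1a, the inhibitor induced by p53, was at 1686 and 2199 CPM and 1113, 1496 and 3769 CPM, highest in i4F 3 (adjusted p = 0.91). Among 18 genes of coagulation and vascular tone (median 0.64) the cyclooxygenase gene Ptgs2 rose, and of 14 junction genes Jam3 fell (median -0.31). Of 17 p53 and senescence genes 1 was called higher (median 0.51). Ptgs2 went from 0 and 0.837 CPM to 45.7, 26.4 and 32.8 CPM and was more abundant in other cells.

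Of 24 genes of NF-kappaB signalling and the acute phase, Lrg1 and Lcn2 rose with all mice (median 0.30). Without i4F 3, 7 rose and 4 fell (median -0.09). Il4ra, the receptor subunit for IL-4 and IL-13, was at 41.3 and 43.5 CPM in the WT and 84.6, 102 and 84.2 CPM in the i4F mice, higher in all 3 (1.14 without i4F 3, adjusted p = 0.016). Socs3, the feedback inhibitor of cytokine signalling, was at 652 and 1813 CPM, 210.3 and 289 CPM and 1486 CPM (-2.30, adjusted p = 0.015), and its WT mice differed from each other. Of 14 mesenchymal genes none passed with all mice (median 1.78, and 0.68 without cells of other or lymphatic markers), and Fn1, Col1a1, S100a4 and Zeb2 rose without i4F 3 while Snai1 (-1.60) and Snai2 (-2.44) fell. Col1a1, the main fibroblast collagen, was at 3.59 and 8.79 CPM in the WT and 206, 22.9 and 8.56 CPM in the i4F mice, and the summed stellate cell markers were at 196 and 458 CPM in the WT and 837, 176 and 216 CPM in the i4F endothelial cells.

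Of the 57 genes called higher, 37 were more abundant in the other cells of at least 1 i4F mouse. They included the neutrophil gene S100a9, with 0 UMIs in the WT mice and 52.6, 129 and 12.8 CPM in the i4F mice (at least 89.4-fold above the 3 UMIs that a count of 0 allows), the macrophage chemokine gene Ccl6 (1.8 and 1.67 to 197, 164 and 45.7 CPM), AA467197 (1.35 and 0.419 to 153, 59.9 and 29.97 CPM) and the complement gene C1qa (4.49 and 7.54 to 158, 61.6 and 38.5 CPM). Lcn2, an iron-binding acute phase protein made by epithelium and neutrophils, was at 6.73 and 7.12 CPM in the WT and 283, 729 and 437 CPM in the i4F mice (6.10 ± 0.58, adjusted p = 0.0048). It led the lymphatic-like cluster together with other genes, and its difference was 2.22 (adjusted p = 0.089) with the WT Lymph_nodes cells added. Among the lower genes, the pericyte marker Rgs5 was at 137 and 191 CPM in the WT and 6.86, 14.1 and 24.3 CPM in the i4F mice (-3.36 ± 0.39, adjusted p = 0.015). The summed 7 mural markers, Rgs5 included, were at 236, 104 and 122 CPM in the i4F and 228 and 249 CPM in the WT endothelial cells. Rgs5 gave 305 of 477 and 455 of 614 of these UMIs in the WT mice. In i4F 1, i4F 2 and i4F 3 it gave 3 of 104, 8 of 60 and 17 of 94, so that the other mural markers did not fall with it. After removal of cells with 2 or more pan-immune or stellate markers, 49 of the 66 genes were still called and 9 were no longer tested.

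Against the endothelial cells of caerulein pancreatitis, 5 of 8153 genes were higher in i4F (0.0613%) and 44 lower (0.54%). These counts were unstable. Without i4F 3 they were 14 and 64 (0.164 and 0.748%), without i4F 1, i4F 2, caerulein 1 or caerulein 2 they were 0 and 3, 0 and 0, 0 and 0, and 0 and 9, and with the library name series as a term they were 1 and 0. All i4F libraries carry one series and all caerulein libraries the other, so that the estimate then rests on the WT mice. Apart from rtTA, the higher genes were Usp18 (a protease that removes ISG15), Gbp3 (a guanylate-binding GTPase), Sult1a1 (a sulfotransferase) and Qsox1 (a sulfhydryl oxidase). Usp18 was at 43.4, 77.5 and 58.5 CPM in i4F 1, i4F 2 and i4F 3 and 11.2 and 15.7 CPM in the caerulein mice (2.25 ± 0.38, adjusted p = 0.042). Gbp3 was at 52.6, 66.9 and 91.3 CPM and 18.7 and 15.7 CPM (2.00 ± 0.35, adjusted p = 0.047). For both, all i4F mice including i4F 1 and i4F 2 lay above both caerulein mice, and the WT mice were at 61 and 59.5 CPM for Usp18 and 110.4 and 95.5 CPM for Gbp3. Over the 45 interferon-stimulated genes the median difference from the caerulein mice was 1.23, beside 0.02 for all tested genes. Sult1a1 was at 158, 136 and 163 CPM and 32.7 and 37.6 CPM (2.13 ± 0.27, adjusted p = 0.023).

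Genes lower than after caerulein included the macrophage genes C1qa, Apoe and Ctsd. The summed macrophage markers were at 224 to 1064 CPM in the i4F and 5259 to 7603 CPM in the caerulein endothelial cells, and once cells with 2 or more pan-immune or stellate markers were removed no gene passed in either direction with edgeR (537 had an unadjusted p under 0.05). Without these cells Usp18, Gbp3 and Sult1a1 no longer passed, at log2 differences of 2.02, 1.81 and 1.84 (adjusted p = 0.19, 0.19 and 0.12), and the lysosomal reductase gene Ifi30 went from -2.72 to -0.67. Rgs5 was at 6.86, 14.1 and 24.3 CPM in the i4F and 157 and 201 CPM in the caerulein mice (-3.47 ± 0.40, adjusted p = 0.016). The circadian repressor gene Nr1d1 was at 4.57, 3.52 and 12.8 CPM and 71.9 and 78.4 CPM (-3.30 ± 0.57, adjusted p = 0.047). In the WT mice Nr1d1 was at 14.4 and 4.61 CPM, near the i4F mice and far below the caerulein mice. Rgs5 and Nr1d1 were the lower genes of the naming rule that endothelial cells held, judged in the caerulein mice. Judged in the WT mice, Rgs5 was not held. For Lrg1 the i4F and caerulein mice overlapped (1661 and 1223 CPM after caerulein, adjusted p = 0.95), as they did for Scgb3a1 (166 and 150.5 CPM, adjusted p = 0.82) and Cavin2 (447 and 602 CPM, adjusted p = 0.98), and these values do not show that the 2 injuries act alike.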

How the data were processed

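Whole pancreata were dissociated enzymatically, red cells were lysed, and 1 droplet library per mouse was made with 10x 3′ v3 chemistry. The authors deposited 3 tables of UMI counts per gene and cell (WT, i4F and caerulein) and a table of cells with their cluster names, made with Cell Ranger on the mm10 build, SoupX and Seurat. Per the methods, each condition was clustered and named on its own after SoupX removed ambient RNA and cells under 150 genes or over 5% mitochondrial reads were dropped. Whether the deposited counts precede SoupX was not settled, and all values are whole numbers. The authors also deposited the percent of mitochondrial UMIs per cell, used here as a description only. The tables list 28166, 31676 and 28764 genes, and a gene not listed counted as 0 UMIs.

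UMI counts were summed per mouse over cells whose deposited cluster name contains an endothelial term. Sums were fitted with edgeR 4.0.16 (R 4.3.3) with TMM scaling, filterByExpr and the quasi-likelihood test, all 7 mice in 3 groups, and p-values were adjusted by the Benjamini-Hochberg method over all genes tested (threshold 0.05). Gene levels are CPM scaled by TMM. Levels of sub-clusters, markers and other cells are plain CPM, and so are those that place i4F 3 among the genes called without it. The comparison with other cells thus sets unlike scales side by side. For Csf2rb in i4F 3 (31.4 against 28.8 CPM) its outcome rests on the scaling. With plain CPM on both sides the endothelial cells lay just below, and Csf2rb would not count as held. Shares were compared with exact permutation tests, and their exact binomial intervals at 95%, like the limit of 3 UMIs for a count of 0, cover counting error only. Each mouse gave 1 library, so p-values measure the spread between these mice. Sub-clusters came from Seurat 5.3.0 (20 principal components, resolution 0.2 and 0.5). Scrublet (scanpy 1.11.5) was run for doublets per mouse. It marked 2 of 4327 cells of WT 1 and 0 of 7614 cells of i4F 3 and so did not work there, and doublets stay in the main sums.

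Named genes passed the threshold with a mean log2 CPM of at least 4 and no overlap between mice, ranked by fold change, up to 12 per direction held by endothelial cells and 5 not held (6 and 0 against caerulein), plus members of 28 gene lists. The members and lists were chosen with earlier results of these data known. Some further genes past the threshold, such as Inhbb, Hilpda, Fkbp5 and Zbtb16, were picked outside these rules. The gene tests were repeated in DESeq2 1.42.0, without TMM or the filter, with the compared groups alone, with terms for replicate number (block) or for the series of the library names, after removing cells under 500 genes, doublets, or cells with 2 or more pan-immune or stellate markers, over genes listed in all tables, with each mouse left out, and, chosen after seeing the data, cells with lymphatic genes removed, WT Lymph_nodes cells added and WT Endothelial_1 cells only. The test was checked on simulated counts. Results for some genes that passed the test are not reported here.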

Additional observations from a re-analysis of the deposited data

How the results depend on the processing

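Against WT, 66 genes passed in the reported fit, and the number moved to 292 with DESeq2 (241 higher and 51 lower), 110 without TMM (82 and 28), 882 without the filter, 46 with the library name series as a term (14 of the 28 ranked or listed genes past the threshold lost their call), 15 with only the WT and i4F mice, 809 with the replicate block, and, with alternatives chosen after seeing the data, 43 without cells of lymphatic genes, 18 with the WT Lymph_nodes cells added, 139 with Endothelial_1 cells only and 24 without cells of other or lymphatic markers. Leaving out 1 mouse gave 9 to 1223 genes (a WT mouse left alone is assumed to vary like the other groups). Against caerulein, 49 genes became 119 with DESeq2, 413 without the filter, 76 with only these groups, 27 with the replicate block, 1 with the library name series, 24 without doublets, 0 without cells of other markers (537 at an unadjusted p under 0.05 in edgeR) and 0 without cells of other or lymphatic markers (523), and 0 to 78 with 1 mouse left out. The sign turned for Lyve1 (-0.058) and Ccl21a (-1.18) with the WT Lymph_nodes cells added, and for none of the other genes followed through the alternatives, which were those ranked by the rule for named genes and list members past the threshold. The cause of these changes was not tested.

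Cell numbers tested with edgeR in place of the permutation test gave log2 ratios of -1.97 (p = 0.0007947) and, with the replicate block, -2.42 (p = 5.649e-05) for all cells, and -1.30 (p = 0.02067) and -1.64 (p = 0.002432) for non-immune cells. The block takes i4F 3 out of the comparison, since no other mouse has its number. Leaving out 1 mouse gave -2.39 to -1.67 and -1.61 to -1.01. Same-numbered mice did not deviate together (correlations of -0.04 and -0.029 between WT and i4F), so the numbers do not pair the mice. With 2 and 3 mice per group, 440769 to 768676 UMIs per i4F mouse and 1 library that stands apart, genes of low level were not measured precisely.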
